A study of Mus musculus with 4 samples.

Results

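BATF-binding and IRF4-binding were compared peak by peak in *Junb*-sufficient Treg cells. The BATF list held 13570 peaks and the IRF4 list 31093, out of 103355 peaks in the 4 lists of the series. Peaks sharing at least 1 bp were paired, which gave 3 classes. There were 12019 BATF peaks with IRF4, 1551 BATF peaks without IRF4 and 19074 IRF4 peaks without BATF. No BATF peak touched more than 1 IRF4 peak. Peaks were 613 bp wide and kept at least 1224 bp apart within a list, which left almost no room for more.

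BATF is a basic leucine zipper protein of the AP-1 family that lacks an activation domain of its own and binds DNA as a dimer with a Jun protein, such as JunB. IRF4 is an interferon regulatory factor induced by antigen receptor signals. By itself it binds poorly to DNA, and it is recruited with BATF and a Jun protein to composite AP-1 and IRF elements (AICEs), with ETS factors to composite ETS and IRF elements (EICEs), and at high concentration to interferon-stimulated response elements (ISREs). Both factors are needed for effector Treg (eTreg) cells, the activated Treg cells that enter tissues and carry molecules such as ICOS, CTLA4 and IL-10.

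The study asked how JunB takes part in gene regulation by BATF and IRF4 in these cells. CD4+CD25+ Treg cells from the spleens of C57BL/6 mice were cultured with IL-2 and antibodies to CD3 and CD28, then collected after 60 h and taken through chromatin immunoprecipitation (ChIP-seq), with 1 library for each antibody. The study used mice 6 to 12 weeks old. The labels give *Junb*-sufficient cells as Foxp3cre JUNB+/+ and *Junb*-deficient cells as Foxp3cre JUNBFl/Fl, with Cre under the *Foxp3* promoter, whereas the study's text describes *Junb* fl/fl mice and Cd4-driven Cre for *Junb*-deficient cells, so the genotype is given here only as sufficient or deficient. The antibody field of the labels exchanges BATF and IRF4 between these libraries, and the sample titles were followed, as were the tag directories in the headers of the lists. The *Junb*-deficient IRF4 library gave a value that bears on this. Of its 29033 peaks, 69.6% overlapped the list titled IRF4 and 35.0% the list titled BATF. When the first 13570 peaks of each list were used, the shares were 68.3% and 55.6%, so the list titled IRF4 stayed the nearer of the pair. Peaks do not measure expression, and the identity of the cells could not be checked by markers.

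The BATF library held 26496780 tags and the IRF4 library 23914441, of which 16.1 M and 17.3 M remained after the limit of 1 tag per bp. Both peak lists were called at 19 tags and a false discovery rate of 0.001, with peaks 613 bp wide. The BATF list held 5.03% of its tags in peaks and the IRF4 list 12.8%. The lists keep no height per peak, and the place of a peak in its list was used instead. By which value peaks were sorted is not stated, so reading an early place as stronger binding is an assumption. With 1 library per antibody there is no replicate error. The 95% intervals below are exact binomial (Clopper-Pearson) for shares and Newcombe intervals for differences of shares. They cover counting over peaks in these libraries only, and neighbouring peaks are not independent.

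To show what lies under the peaks, stretches of mm9 sequence were read around matches to short consensus motifs. An AICE match was GAAATGANTCA or GAAATGANTAA, in which the IRF and AP-1 parts adjoin, or the same AP-1 part set 4 bases after TTTC. Distances are to the nearest annotated start site, which can lie inside a gene. The AICEs in BATF with IRF4 peaks assigned to genes of eTreg function are shown first, with the match in capitals. *Ctla4* encodes an inhibitory receptor of Treg cells, *Icos* a costimulatory receptor, *Il10* a suppressive cytokine and *Prdm1* the transcription factor Blimp-1. The first *Ctla4* pair lies in the same intronic peak, 4.34 kb downstream of a *Ctla4* start site.
Ctla4 intron, chr1:60970300-60970360, plus strand: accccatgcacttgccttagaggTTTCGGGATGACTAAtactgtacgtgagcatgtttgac
Ctla4 intron, chr1:60970367-60970427, plus strand: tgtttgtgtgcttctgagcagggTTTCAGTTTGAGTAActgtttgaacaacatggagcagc
30.004 kb downstream of a Ctla4 start site, intergenic, chr1:60995999-60996059, plus strand: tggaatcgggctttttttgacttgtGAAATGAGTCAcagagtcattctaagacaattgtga
49.0 kb downstream of Icos, intergenic, chr1:61083721-61083781, minus strand: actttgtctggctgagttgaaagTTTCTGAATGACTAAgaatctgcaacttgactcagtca
9.12 kb upstream of Il10, intergenic, chr1:132907258-132907318, minus strand: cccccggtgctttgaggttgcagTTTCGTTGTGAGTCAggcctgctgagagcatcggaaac
38.7 kb downstream of a Prdm1 start site, intergenic, chr10:44139793-44139853, minus strand: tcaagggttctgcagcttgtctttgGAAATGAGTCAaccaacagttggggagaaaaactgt

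All 5 peaks behind these stretches were also JunB peaks and also IRF4 peaks in *Junb*-deficient cells. Of all BATF with IRF4 peaks, 74.6% overlapped a JunB peak and 81.1% a *Junb*-deficient IRF4 peak. Of those with an AICE, 81.1% had such a *Junb*-deficient peak. Presence of a peak without a height does not give the level of binding. The paper reports lower IRF4 levels at some sites between *Icos* and *Ctla4* in *Junb*-deficient cells. It also reports reduced IRF4 binding near both genes by PCR of the immunoprecipitated DNA. The next stretches come from early AICE peaks of BATF with IRF4, at places 12 and 13 of the BATF list. The matches lay 24 and 10 bp from the BATF centre, and the *Oxsr1* stretch shows the first of 3 matches in its window. *Oxsr1* encodes a kinase of the osmotic stress response and *Enpp6* a choline phosphodiesterase.
Oxsr1 intron, 1.17 kb upstream of an internal start site, chr9:119175009-119175069, minus strand: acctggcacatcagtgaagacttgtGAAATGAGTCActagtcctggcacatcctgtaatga
45.4 kb upstream of Enpp6, chr8:48026820-48026880, plus strand: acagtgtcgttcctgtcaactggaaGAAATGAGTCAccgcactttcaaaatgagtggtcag

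BATF peaks without IRF4 held AICEs as well, and their first-listed stretches are shown for contrast. They came at places 926, 1500 and 2356 of the BATF list, were all JunB peaks and were none of them IRF4 peaks in *Junb*-deficient cells. *Cd47* encodes a cell surface signal that inhibits phagocytosis. In the first pair the AP-1 part reads TGATTCA and in the last TGAGTAA, which differ from the full AP-1 motif TGACTCA or TGAGTCA.
60.7 kb upstream of Cd47, chr16:49795040-49795100, plus strand: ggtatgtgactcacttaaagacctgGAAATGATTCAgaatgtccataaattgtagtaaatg
N4bp1 intron, 8.63 kb downstream of an internal start site, chr8:89376565-89376625, plus strand: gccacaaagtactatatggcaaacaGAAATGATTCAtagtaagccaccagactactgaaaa
24.5 kb upstream of D5Ertd579e, chr5:37111699-37111759, minus strand: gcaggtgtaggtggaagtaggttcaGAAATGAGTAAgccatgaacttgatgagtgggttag

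For IRF4 without BATF, early matches to the other IRF elements are shown. The ISRE was searched as GAAA, any 2 bases and GAAA, and the EICE as GGAA, any 2 bases and GAAA. *Dad1* lies next to the T cell receptor alpha locus. All 5 peaks overlapped a JunB peak and were also IRF4 peaks in *Junb*-deficient cells.
ISRE, 26.4 kb downstream of Dad1, chr14:54847068-54847127, plus strand: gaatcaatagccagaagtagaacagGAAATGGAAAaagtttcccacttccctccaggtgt
ISRE, Dcun1d3 intron, 10.6 kb upstream of an internal start site, chr7:127015901-127015960, plus strand: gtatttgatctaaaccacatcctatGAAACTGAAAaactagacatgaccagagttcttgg
ISRE, 14.2 kb upstream of A930002I21Rik, chr3:106879555-106879614, plus strand: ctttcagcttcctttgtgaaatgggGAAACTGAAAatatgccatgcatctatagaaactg
EICE, 64.8 kb downstream of an Ift57 start site, chr16:49775810-49775869, plus strand: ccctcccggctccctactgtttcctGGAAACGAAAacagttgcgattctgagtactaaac
EICE, 46.1 kb upstream of Fam107b, chr2:3575174-3575233, minus strand: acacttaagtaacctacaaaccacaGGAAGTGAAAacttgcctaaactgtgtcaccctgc

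Most BATF peaks lay on IRF4 peaks, whereas most IRF4 peaks lay away from BATF. The share of BATF peaks with IRF4 was 88.6% (95% interval 88.0 to 89.1), and that of IRF4 peaks with BATF was 38.7% (38.1 to 39.2). No BATF peak touched more than 1 IRF4 peak, so at most 13570 of the 31093 IRF4 peaks could have a BATF partner. That most IRF4 peaks lay away from BATF was thus set by the list lengths. With equal numbers of first-listed peaks, both shares were 69.4%. Shared peaks stood earlier than unshared peaks in both lists. BATF peaks with IRF4 had a median place at 46.4% of the BATF list, against 76.2% for those without IRF4. Their IRF4 partners had a median place at 22.5% of the IRF4 list, against 66.5% for IRF4 peaks without BATF. Across the 12019 pairs, the places in both lists followed each other with a Spearman rho of 0.807, given as a description, since both libraries share chromatin, mappability and peak caller.

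The share fell along both lists, and more steeply along the IRF4 list. Each list was cut into 10 equal parts. In the first part of the BATF list 98.3% of peaks (97.5 to 98.9) had an IRF4 partner, and in the last 72.3% (69.8 to 74.7). In the first part of the IRF4 list 94.7% (93.8 to 95.4) had a BATF partner, and in the last 4.60% (3.89 to 5.39). The early peaks of both factors were therefore largely the same sites, and the classes differed in place as well as in partner. Comparisons were for this reason also made within 4 equal parts of a list, numbered from the first-listed. When only the first 13570 IRF4 peaks were kept, 69.4% of BATF peaks had a partner.

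**Figure D1:**
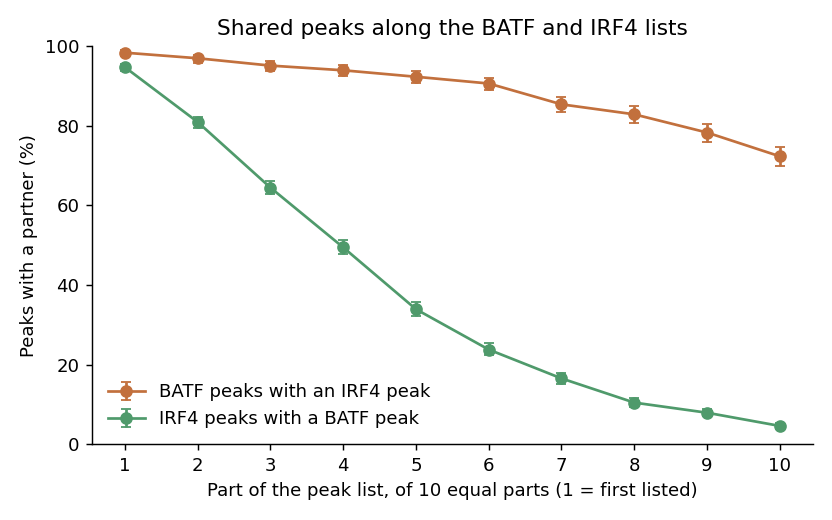
Percent of BATF peaks with an IRF4 partner (orange) and of IRF4 peaks with a BATF partner (green) in each of 10 equal parts of its own peak list, first-listed peaks at the left; bars are exact binomial 95% intervals over peaks. The BATF line runs from 98.3% to 72.3%, and the IRF4 line from 94.7% to 4.60%.

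Where BATF and IRF4 peaks overlapped, their centres almost coincided. The median distance between centres was 24 bp, with quartiles at 10 and 48 bp. Centres lay within 50 bp of each other in 76.7% of pairs (76.0 to 77.5) and within 100 bp in 88.5% (88.0 to 89.1), and 179 pairs had the same centre. The peaks are 613 bp wide, and the widest distance seen was 595 bp. Pairs in part 1 of 4 of the BATF list were nearer, at a median of 17 bp, than those in part 4, at 33 bp. Pairs at promoters had a median of 35 bp, and those outside promoters 23 bp. Pairs with an AP-1 match were 21 bp apart and those with an AICE 18 bp.

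**Figure D2:**
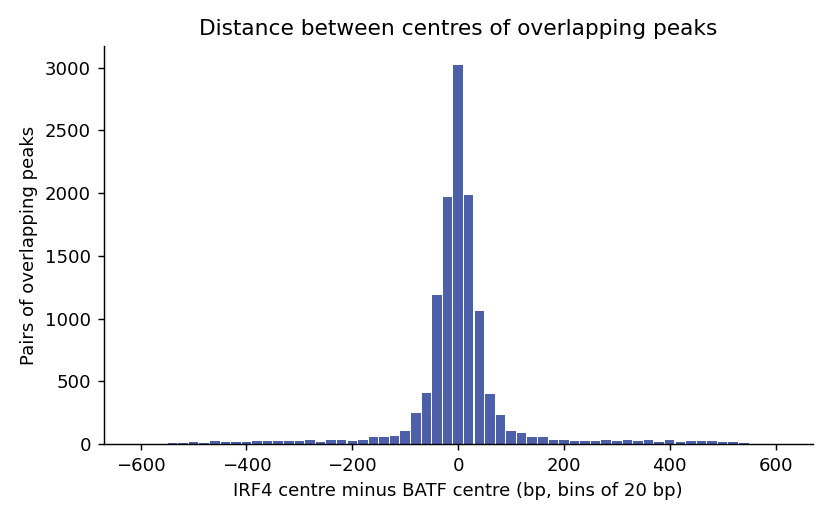
Number of overlapping BATF and IRF4 peak pairs (vertical axis) by IRF4 centre minus BATF centre in bp (horizontal axis, bins of 20 bp), over 12019 pairs. The offsets gather around 0 with about as many pairs on either side, and the median distance is 24 bp.

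BATF peaks without IRF4 were often near an IRF4 peak that did not overlap them. The centre of the nearest IRF4 peak was within 5 kb for 33.1% of BATF peaks without IRF4 (30.7 to 35.5). For BATF peaks with IRF4, the nearest other IRF4 peak was within 5 kb for 7.89% (7.41 to 8.38). Within 10 kb the shares were 54.9% and 39.3%. The caller kept peaks of a list at least 1224 bp apart and removed those less than 4-fold above the surrounding 10 kb, which took 36.2% of putative BATF peaks and 37.4% of putative IRF4 peaks. The part of these filters in the difference was not tested. From IRF4 peaks without BATF, the nearest BATF peak was at a median of 32.3 kb and within 5 kb for 4.85% (4.55 to 5.16), while for IRF4 peaks with BATF the nearest other BATF peak was within 5 kb for 4.50% (4.14 to 4.89).

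The AP-1 motif was most frequent at the shared sites. Matches to TGACTCA or TGAGTCA were counted within 100 bp of the peak centre, on both strands. They were present in 37.0% of BATF with IRF4 (36.1 to 37.9), in 23.8% of BATF without IRF4 (21.7 to 26.0) and in 19.9% of IRF4 without BATF (19.3 to 20.4). Windows of equal length 5 kb downstream that touched no peak held the motif in 3.50%, 2.55% and 3.59%. BATF peaks without IRF4 thus had the AP-1 motif less often than those with IRF4, by 13.2 percentage points (10.9 to 15.4). Within part 2 of 4 of the BATF list the interval of this difference included 0 (-10.4 to 2.20), and in the other parts it did not. Among IRF4 peaks, those without BATF had the motif less often in each of the 4 parts of the IRF4 list, with 21.6% against 38.4% in part 1 and 19.7% against 32.4% in part 4.

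AICEs followed the same order at lower levels. An AICE lay in 7.01% of BATF with IRF4 (6.56 to 7.49), in 4.96% of BATF without IRF4 (3.94 to 6.17) and in 2.23% of IRF4 without BATF (2.02 to 2.45), and in 0.275%, 0.336% and 0.253% of the downstream windows. Only the difference between IRF4 peaks with and without BATF held in each of the 4 parts of its list. In BATF with IRF4, 51.0% of 874 matches were of the adjoining form and the rest of the spaced form. In IRF4 without BATF the adjoining form made up 65.2% of 428 matches. The commonest adjoining sequence was GAAA followed by TGACTCA, with 172 of 446 in BATF with IRF4 and 94 of 279 in IRF4 without BATF, and the next was GAAA followed by TGAGTCA with 111 and 62. Many peaks held none of the searched motifs. None of AP-1, AICE, ISRE and EICE was found in 51.8% of BATF with IRF4, 66.3% of BATF without IRF4 and 68.1% of IRF4 without BATF, which says only that these letters were absent from the window.

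The shared peaks were centred near AP-1 rather than ISRE matches. In 4109 pairs with a single AP-1 match within 200 bp, the match lay a median of 24 bp from the BATF centre and 26 bp from the IRF4 centre. In 1407 pairs with a single ISRE match, both medians were 58 bp. For 887 pairs with a single AICE, they were 19 and 22 bp. The IRF4 centre was thus no nearer to the ISRE than the BATF centre was.

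ISRE matches were about as frequent in IRF4 peaks with and without BATF when places were ignored, and differed when they were not. They were found in 9.32% of BATF with IRF4 (8.80 to 9.85), 6.64% of BATF without IRF4 (5.45 to 8.00) and 9.47% of IRF4 without BATF (9.06 to 9.90), against 2.82%, 2.75% and 2.56% downstream. In part 1 of 4 of the IRF4 list, 14.3% of peaks without BATF and 10.1% of peaks with BATF held an ISRE, a difference of 4.19 points (2.21 to 6.36). Part 2 showed 1.88 points (0.520 to 3.22), and the intervals in parts 3 and 4 included 0. EICE matches were rarer, in 3.05%, 3.03% and 3.95% of the classes, with 1.78%, 2.35% and 2.01% downstream. The ETS core CCGGAAG was found in 5.20% of IRF4 without BATF (4.88 to 5.52) and in 1.16% of each BATF class, with 0.742% downstream of IRF4 without BATF. It was more frequent in IRF4 peaks without BATF than in those with BATF in each of the 4 parts of the IRF4 list. The RUNX motif TGTGGTT was found in 11.4%, 8.32% and 10.8% of the classes.

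**Figure D3:**
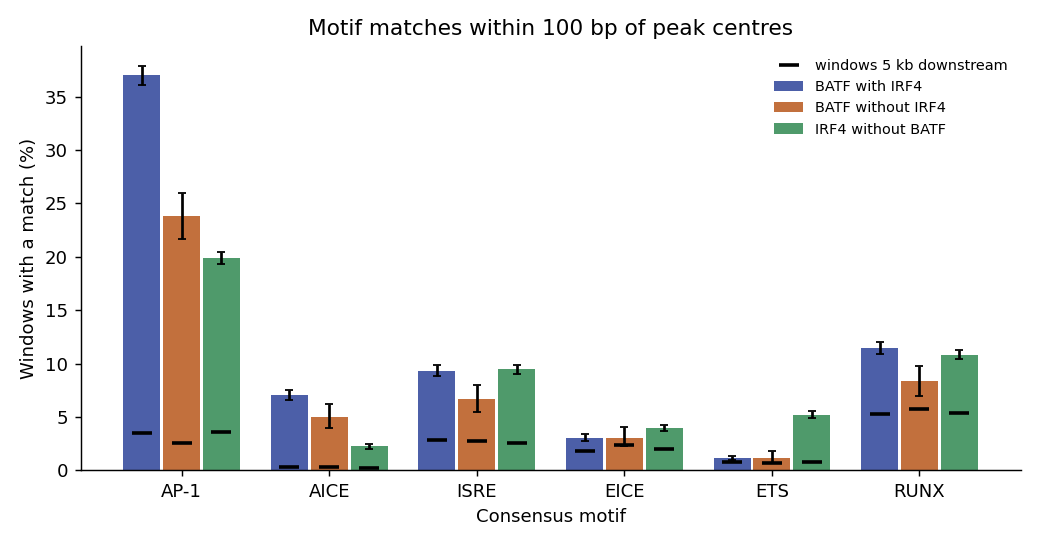
Percent of 201-bp windows at peak centres that hold a match to each consensus motif, for BATF with IRF4 (blue), BATF without IRF4 (orange) and IRF4 without BATF (green); bars are exact binomial 95% intervals over peaks and black ticks the windows 5 kb downstream. AP-1 is found in 37.0% of BATF with IRF4 and 19.9% of IRF4 without BATF, and ETS in 5.20% of IRF4 without BATF.

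IRF4 peaks without BATF lay at promoters far more often than either BATF class. A promoter was taken as 1 kb before to 100 bp after the start site (TSS) of a protein-coding gene. The share at promoters was 5.61% of BATF with IRF4 (674 peaks), 6.25% of BATF without IRF4 (97 peaks) and 19.6% of IRF4 without BATF (3740 peaks). The last exceeded IRF4 peaks with BATF by 14.0 points (13.3 to 14.7), and within the 4 parts of the IRF4 list by 7.44 to 16.4 points, with no interval including 0. BATF peaks with and without IRF4 differed by 0.646 points (-0.534 to 2.02), and only in part 4 of the BATF list did the interval leave out 0, with fewer promoters without IRF4. When partners had to have centres within 100 bp, promoters held 4.74% of BATF with IRF4 and 9.12% of BATF without IRF4. Introns held 48.9%, 47.1% and 38.5% of the classes and intergenic sequence 43.0%, 42.4% and 39.1%.

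Distances to the nearest TSS showed the same split. The median distance was 18.7 kb for BATF with IRF4, 16.3 kb for BATF without IRF4 and 12.4 kb for IRF4 without BATF. Within 1 kb lay 7.64%, 9.16% and 22.4% of peaks, and within 100 kb 87.0%, 86.3% and 89.7%. The classes thus differed near the TSS and much less beyond 100 kb.

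**Figure D4:**
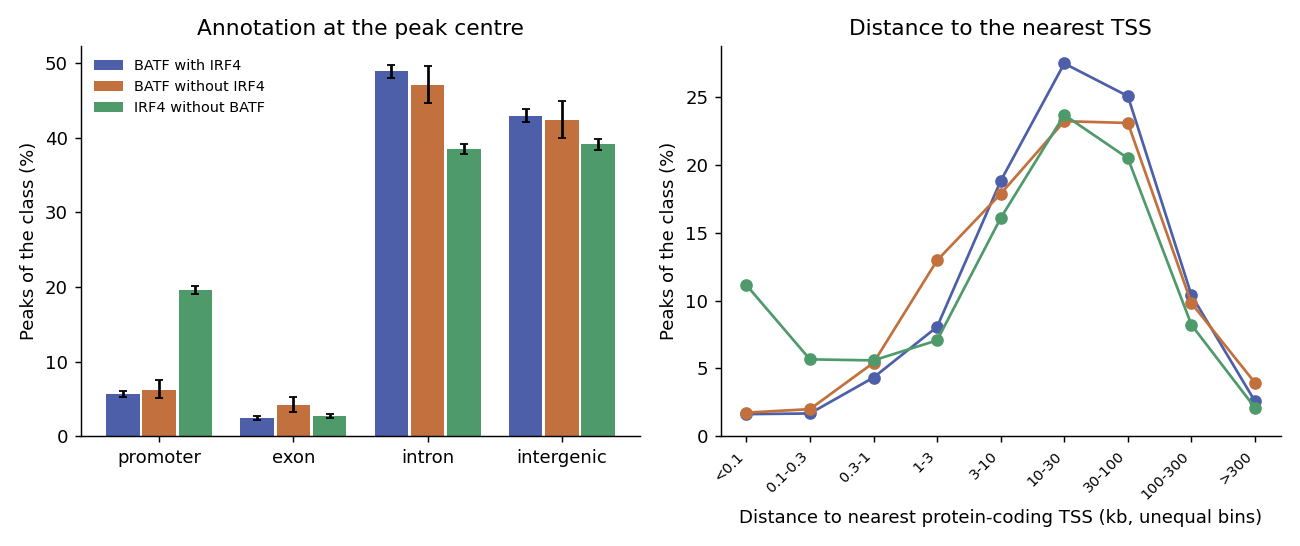
Left, percent of each class whose centre falls in a promoter, exon, intron or intergenic sequence, with exact binomial 95% intervals; right, percent of each class by distance to the nearest protein-coding TSS in kb, in unequal bins. IRF4 without BATF (green) stands at 19.6% in promoters, against 5.61% and 6.25% for the BATF classes.

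The promoters bound by IRF4 without BATF were of another base composition. Of these 3740 peaks, 65.3% had a CpG-rich window, with GC at least 50% and observed over expected CpG at least 0.6, and the median GC was 59.2%. For the 674 promoter peaks of BATF with IRF4, 26.3% were CpG-rich and the median GC was 47.3%. The ETS core, itself rich in G and C, was found in 19.5% of the former and 6.08% of the latter, and AP-1 in 5.88% and 24.9%. Outside promoters, IRF4 peaks without BATF held AP-1 in 23.3% and IRF4 peaks with BATF in 37.5%, so the lower AP-1 share was also present there. Outside promoters the ISRE share was 10.7% without BATF and 9.50% with BATF. The ETS core was found there in 1.70% without BATF and 0.917% with BATF. This was a difference of 0.779 points (0.507 to 1.05), against 3.90 points over all IRF4 peaks.

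Shared sites held a JunB peak, from the remaining *Junb*-sufficient library, more often than the other classes. A JunB peak overlapped 74.6% of BATF with IRF4 (73.8 to 75.3), 41.1% of BATF without IRF4 (38.7 to 43.6) and 18.7% of IRF4 without BATF (18.1 to 19.2). Within the 4 parts of each list, peaks with a partner also had JunB more often than those without. Early BATF peaks without IRF4 were mostly JunB peaks as well, with 87.6% in part 1 of 4 of the BATF list, against 98.5% of those with IRF4. JunB peaks were 151 bp wide and called at 10 tags, so their overlaps are not on the footing of the other lists.

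IRF4 peaks in *Junb*-deficient cells lay on most shared sites and on fewer of the IRF4 peaks without BATF. The shares were 81.1% of BATF with IRF4 (80.4 to 81.8), 25.6% of BATF without IRF4 (23.4 to 27.8) and 54.8% of IRF4 without BATF (54.1 to 55.5). The value for BATF without IRF4 rested on the overlap rule, and it was 51.4% when partners had to have centres within 100 bp. The difference between IRF4 peaks with and without BATF was smaller at matched places. In part 1 of 4 of the IRF4 list the shares were 91.8% and 75.8%, in part 2 they were 75.1% and 72.7%, in part 3 the interval of the difference included 0 (-5.29 to 0.325), and in part 4 they were 46.4% and 37.5%. At promoters, 74.1% of IRF4 peaks without BATF had a *Junb*-deficient counterpart, and 10.1% a JunB peak. Outside promoters these shares were 50.1% and 20.7%.

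Presence in *Junb*-deficient cells was also set against the motif under the peak. The ISRE group could also hold AP-1 or AICE matches. Among BATF with IRF4, 90.7% of peaks with an ISRE (88.9 to 92.4) had a *Junb*-deficient IRF4 peak, 81.1% of those with an AICE (78.3 to 83.7) and 75.1% of those with AP-1 and no AICE (73.7 to 76.5). Among IRF4 without BATF the values were 67.1% (64.9 to 69.2), 39.3% (34.6 to 44.1) and 35.2% (33.6 to 36.8). Over all peaks of these classes the shares were 81.1% and 54.8%. At the shared sites the AICE group thus had the share of its whole class. The ISRE stood first in both classes, and the level was lower without BATF, where the intervals of the AICE and AP-1 groups overlapped. Places were not matched here. With 1 library per genotype these values describe the libraries and not the genotypes.

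Peaks were assigned to the protein-coding gene with the nearest TSS. BATF with IRF4 reached 6103 of 22238 genes (27.4%), BATF without IRF4 1345 (6.05%) and IRF4 without BATF 10009 (45%). Of the genes with a BATF peak without IRF4, 61.8% also had a shared peak, and of those with an IRF4 peak without BATF, 42.4% did. *Myc*, the growth regulator, had 36 BATF with IRF4 peaks and 22 IRF4 without BATF peaks, reaching 905 kb from its TSS. *Gata3*, a transcription factor of Th2 and eTreg cells, had 31 and 16, the farthest 1259 kb away. *Cblb*, a ubiquitin ligase that restrains T cell activation, *Ets1*, a lymphocyte transcription factor, and *Inpp4b*, a phosphoinositide phosphatase, followed with 24, 21 and 21 shared peaks, and *Klf6* and *Lpp* also had 21 each. Among BATF peaks without IRF4, *Inpp4b* had 6, *Elmo1* and *Trps1* 5 each, *Gm15319* 4 and *Abtb2* 3. For IRF4 without BATF, *Myc* and *Sox5* had 22 each, *3110018I06Rik* 20, and *Klf6* and *Lpp* 19 each. Genes with wide surroundings can gather more peaks under this rule, and the counts were not corrected for it.

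Effector Treg molecules carried shared peaks often. Of 20 such genes, 15 had a BATF with IRF4 peak (all genes 27.4%), 5 a BATF without IRF4 peak (6.05%) and 14 an IRF4 without BATF peak (45%). BATF with IRF4 made up 49.5% of their 99 peaks, against 36.8% of all 32644 assigned peaks. *Icos* had 10 shared peaks and 8 of IRF4 without BATF. *Tigit*, an inhibitory receptor, had 6 assigned peaks and all were shared, all at JunB peaks and 1 of them at the promoter. *Tnfrsf9* and *Il2ra*, the receptor chains 4-1BB and CD25, also had shared peaks only among those assigned, 2 and 1. Whichever gene was nearest, 3 peaks of IRF4 without BATF lay within 100 kb of *Tigit* and 1 of *Tnfrsf9*. A BATF peak without IRF4 lay within 100 kb of *Il2ra*. *Gzmb*, the cytotoxic protease granzyme B, and *Entpd1*, the ectonucleotidase CD39, lay at the other end, with 6 IRF4 without BATF peaks each and 1 and 2 shared peaks. *Itgae*, the integrin CD103, had 4 assigned peaks, all of IRF4 without BATF, with 1 shared peak within 100 kb. *Tnfrsf4*, the receptor OX40, had none, because the peaks around it were nearer to other start sites, and 5 peaks of IRF4 without BATF and 2 shared peaks lay within 100 kb.

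The locus of *Ctla4* (chr1:60943844-60972676, plus strand) held all 3 classes. It had 7 shared peaks, 6 peaks of IRF4 without BATF and 1 of BATF without IRF4. The shared peak foremost in the BATF list was at place 187 there and at 274 in the IRF4 list, with centres 10 bp apart, in the intron that holds the printed AICE pair. An IRF4 peak without BATF at place 396 of the IRF4 list lay 0.088 kb upstream of an annotated *Ctla4* TSS inside the gene, 4569 bp from the nearest BATF peak, with a JunB peak but without a *Junb*-deficient counterpart. The BATF peak without IRF4, at place 418, was 27.9 kb downstream of an annotated TSS inside the gene and 2134 bp from the nearest IRF4 peak. The paper reports an IRF4 site at about this distance from a *Ctla4* TSS, with less IRF4 binding in *Junb*-deficient cells. Whether both are the same place was not tested, and a missing peak in a list does not show that IRF4 was absent. In this locus 5 of 7 shared peaks and 3 of 6 IRF4 without BATF peaks had a *Junb*-deficient counterpart.

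By nearest TSS, the *Il10* locus (chr1:132916422-132921551, plus strand) was mainly shared, with 4 BATF with IRF4 peaks between 25.9 kb upstream and 18.4 kb downstream of the TSS. Their centres were 13, 15, 21 and 1 bp apart, all 4 were JunB peaks and all 4 were also found in *Junb*-deficient cells. A BATF peak without IRF4 at place 585 lay 29.8 kb upstream, 3912 bp from the nearest IRF4 peak, on a JunB peak with an AP-1 match. A single IRF4 peak without BATF was assigned, 29.7 kb downstream and off JunB peaks. Within 100 kb of *Il10*, whichever gene was nearest, lay 7 peaks of IRF4 without BATF and 5 shared peaks. *Havcr2* (chr11:46268437-46294757, plus strand), encoding the inhibitory receptor TIM-3, had 4 shared peaks, the foremost at place 100 of the BATF list and 99 of the IRF4 list. Its promoter was bound by BATF without IRF4, 0.131 kb upstream of the TSS, and 7396 bp separated this peak from the nearest IRF4 peak, although it overlapped a JunB peak and an IRF4 peak of *Junb*-deficient cells. No IRF4 peak without BATF was assigned to *Havcr2*, but 8 lay within 100 kb of it, beside 7 shared peaks.

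Nearly every gene on the list of effector T cell transcription factors had shared peaks. Of 20 genes, 18 had a BATF with IRF4 peak (all genes 27.4%), 9 a BATF without IRF4 peak (6.05%) and 17 an IRF4 without BATF peak (45%). Shared peaks made up 52.4% of their 248 peaks, against 36.8% of all assigned peaks. *Prdm1* (chr10), which encodes Blimp-1, had 9 shared peaks, the foremost at place 22 of the BATF list and 9 of the IRF4 list with centres 2 bp apart, in an intron 14.1 kb downstream of an annotated TSS and over an ISRE match. *Id2*, an inhibitor of E proteins, had 16 shared peaks, *Maf* 13, *Rora* 10, and *Nr4a3* and *Bcl6* 8 each. *Foxp3* (chrX:7156802-7172369, plus strand), the lineage factor of Treg cells, had 1 shared peak in an intron, at place 8609 of 13570 in the BATF list and 4114 in the IRF4 list, which did not overlap a JunB peak. Promoters were seldom involved, with 2 of the 20 genes having a shared promoter peak (all genes 3.19%) and 3 a peak of IRF4 without BATF (18.3%).

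**Figure D5:**
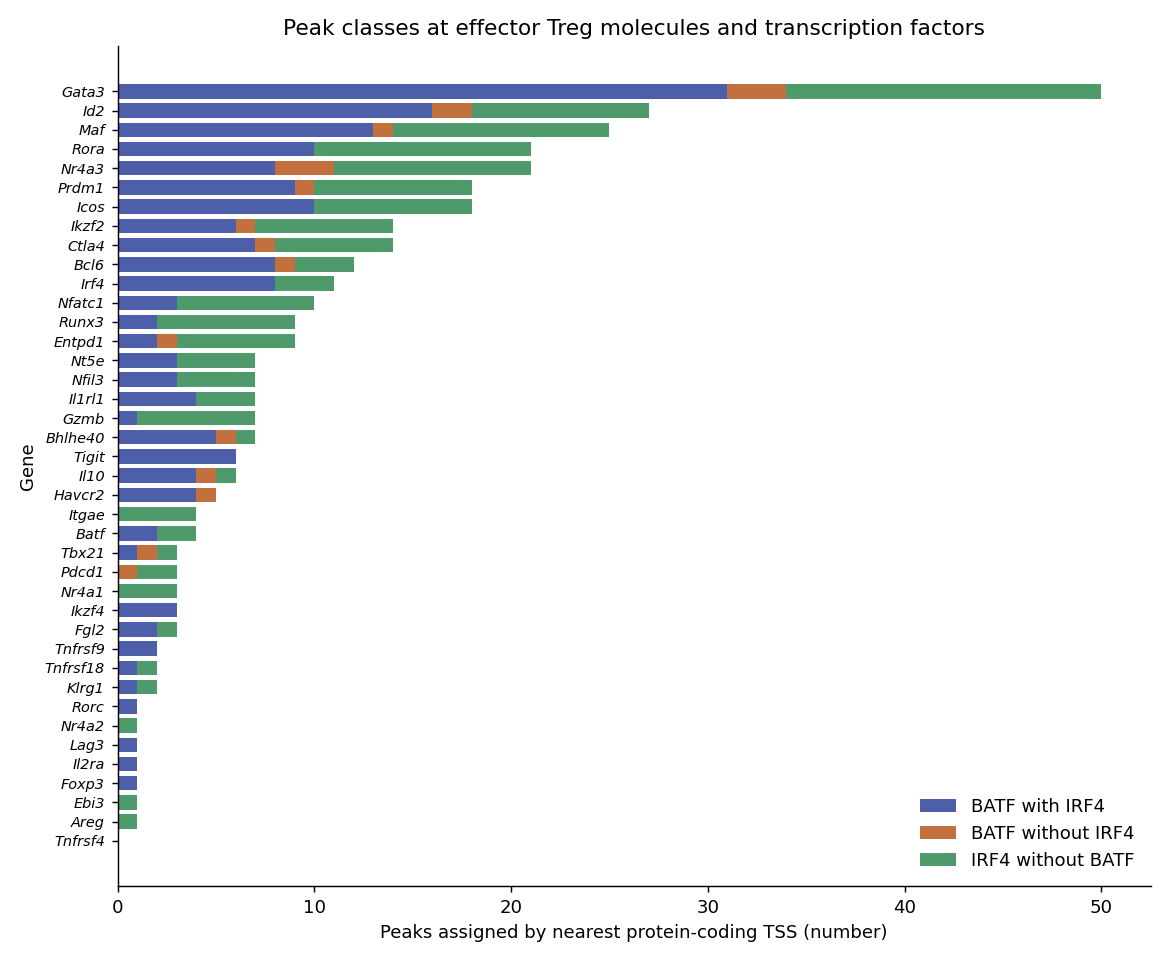
Number of peaks assigned by nearest protein-coding TSS to each effector Treg molecule and effector T cell transcription factor, split into BATF with IRF4 (blue), BATF without IRF4 (orange) and IRF4 without BATF (green). *Gata3* has 31 shared peaks and *Id2* 16, and the peaks assigned to *Tigit* are shared peaks only.

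Genes of the families of both factors were also counted. Of 15 AP-1 genes, 8 had a shared peak (all genes 27.4%), 3 a BATF peak without IRF4 (6.05%) and 10 a peak of IRF4 without BATF (45%). *Bach2*, a repressor that keeps T cells from effector fates, led with 19 and 15, its foremost shared peak at place 54 of the BATF list. *Jun* had 6 shared peaks, *Atf3* and *Bach1* 5 each, and *Batf* and *Batf3* 2 each. *Junb*, *Jund*, *Batf2* and *Mafk* had no assigned peak, because the peaks around them were nearer to other start sites. Within 100 kb of them lay 6, 8, 8 and 4 peaks of IRF4 without BATF, and 1, 0, 2 and 0 shared peaks. *Batf2* also had 2 BATF peaks without IRF4 within 100 kb. Of 9 interferon regulatory factors, 5 had a shared peak (27.4%), 6 a peak of IRF4 without BATF (45%) and none a BATF peak without IRF4 (6.05%). *Irf4* itself had 8 shared peaks, 1.64 to 82.2 kb from its TSS, of which 6 were at JunB peaks, and 3 of IRF4 without BATF.

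Genes of resting and central T cells were bound about as widely as effector genes. Of 12 genes, 11 had a shared peak (all genes 27.4%), 4 a BATF without IRF4 peak (6.05%) and 11 an IRF4 without BATF peak (45%), and shared peaks made up 53.8% of 143 peaks, against 36.8% of all assigned peaks. *Foxp1*, a quiescence factor, had 17 shared peaks, *S1pr1*, the receptor for egress from lymph nodes, 7, and *Il7r* 6. Of 14 chemokine receptors, 11 had a shared peak (27.4%), 2 a BATF without IRF4 peak (6.05%) and 13 an IRF4 without BATF peak (45%). *Cxcr4* had 11 shared peaks and *Ccr7* 5. *Ccr2*, a receptor for entry into inflamed tissue, had 3 BATF peaks without IRF4, of which the nearest to the TSS lay 838 bp from an IRF4 peak centre.

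Of 26 interferon-stimulated genes, 17 had a peak of IRF4 without BATF (all genes 45%), 9 a shared peak (27.4%) and none a BATF peak without IRF4 (6.05%). IRF4 without BATF made up 65.9% of their 41 peaks, near the 58.4% of all assigned peaks. At promoters, 12 had a peak of IRF4 without BATF (all genes 18.3%) and 5 a shared peak (3.19%). The 13 promoter peaks of IRF4 without BATF assigned to these genes all had a *Junb*-deficient counterpart, 2 overlapped a JunB peak and 8 held an ISRE, whereas of all 3740 promoter peaks of that class 74.1%, 10.1% and 4.39% did. The ISRE-bearing promoters were those of *Bst2*, *Gbp2*, *Ifih1*, *Isg20*, *Mx2*, *Parp9*, *Rsad2* and *Stat2*. In the shared promoter peaks of *Gbp3*, *Ifit1*, *Isg15* and *Oasl2* an ISRE was also found, and a BATF peak lay over it. These sequences were chosen after their values were seen, as the first-listed of each class.
Gbp3 promoter, BATF with IRF4, chr3:142223474-142223533, minus strand: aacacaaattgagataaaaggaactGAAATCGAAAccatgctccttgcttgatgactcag
Oasl2 promoter, BATF with IRF4, chr5:115347453-115347512, minus strand: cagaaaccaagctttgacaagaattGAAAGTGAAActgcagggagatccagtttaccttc
Gbp2 promoter, IRF4 without BATF, chr3:142283543-142283602, minus strand: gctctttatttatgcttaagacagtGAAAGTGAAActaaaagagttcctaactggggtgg
Isg20 promoter, IRF4 without BATF, chr7:86058787-86058846, plus strand: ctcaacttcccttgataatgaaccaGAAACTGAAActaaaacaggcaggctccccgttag
Parp9 promoter, IRF4 without BATF, chr16:35939033-35939092, minus strand: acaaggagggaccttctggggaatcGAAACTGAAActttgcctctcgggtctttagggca

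The *Ifit1* promoter peak stood at place 13282 of 13570 in the BATF list and at 2954 of 31093 in the IRF4 list. The pair at the *Gbp3* promoter stood earlier, at place 3776 of the BATF list.

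Ribosomal protein genes, which are active in every cell, were bound at promoters. Of 25 genes, 13 had a promoter peak of IRF4 without BATF (all genes 18.3%), 3 one of BATF without IRF4 (0.468%) and 2 a shared one (3.19%). By nearest TSS, 4 had a shared peak (all genes 27.4%), 5 a BATF without IRF4 peak (6.05%) and 13 an IRF4 without BATF peak (45%). Shared peaks made up 17.6% of their 34 assigned peaks, against 36.8% of all assigned peaks. Of the 11 promoter peaks of IRF4 without BATF assigned to them, 10 had a *Junb*-deficient counterpart and 2 held an ISRE. Of all 3740 promoter peaks of that class, 74.1% and 4.39% did. Of 15 genes of B cells and myeloid cells, 4 had a shared peak (27.4%) and 6 a peak of IRF4 without BATF (45%). Of 15 genes of liver, muscle and neurons, 4 had a shared peak and 3 a peak of IRF4 without BATF, near or below the shares of all genes.

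The very first peaks of both lists did not lie at genes of T cells. Places 1 to 3 of both lists were the same sites on chromosomes 2, 12 and 9, in regions known for satellite repeats, where reads of many copies can pile up. Also at the top were the first BATF peak without IRF4, at place 4 (chr9:3000251-3000863), and the first IRF4 peak without BATF, at place 6 (chr9:3001829-3002441). These lie 1578 bp apart in the same region. After them, BATF without IRF4 had an intergenic peak on chromosome 17 at place 8, then a peak in an intron of *Jak2*, a cytokine receptor kinase, at place 41, 5055 bp from an IRF4 peak, then peaks at *Tbc1d16* and *Ctla4*. IRF4 without BATF had peaks at the *Sfi1* promoter, at a start site inside *Tg*, at *Jarid2* and at the *Ctla4* promoter named above. Within the first 4 Mb of chromosomes lay 113 BATF and 252 IRF4 peaks, and without them the share of BATF peaks with IRF4 was again 88.6%.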

How the data were processed

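The authors aligned ChIP-seq reads to mm9 with Bowtie2 and called peaks in each library with HOMER (version 4.8 per the submitters' processing notes). The deposited score column is 1 for every peak and was not used as a measure. The deposited positions (other values, in bp) were read as BED intervals, in which the start position itself is not counted. Positions printed here are counted from 1. Headers gave tag totals and filters. Peaks of the 2 lists were paired at 1 bp of overlap, and the centre of a peak was used for annotation (GENCODE M1 on NCBIM37, the same build as mm9, with 70021 start sites of 22238 protein-coding genes) and for motifs. Windows were 201 bp, and windows 5 kb downstream were the background. Comparisons were made with Python 3.11.15, NumPy 2.4.6, SciPy 1.17.1 and pysam 0.24.0, and figures with matplotlib 3.10.9. The functions were tested on simulated data, where 61.0% of 20000 peaks were placed to overlap and 61.0% were found. Alternatives changed the overlap rule, list length, start sites, gene rule, motif window and antibody naming. No test across libraries was possible, with 1 library per antibody. Named genes were the members of 10 gene lists, and for each class the 5 genes with most peaks and the 5 first-listed peaks, and sequences were taken from first-listed peaks that held the motif, passing over chromosome 18. Some genes chosen by these rules are not reported here. Members and lists were chosen with earlier results of these data known.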

Additional observations from a re-analysis of the deposited data

How the results depend on the processing

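No paired analysis was possible because each antibody had 1 library and the labels carry no replicate numbers, and no replicate could be left out for the same reason. The lists hold no heights, so depth limits the classes in a way that could not be measured. With overlap of at least 50% of the shorter peak, 84.8% of BATF peaks had IRF4 and 37.0% of IRF4 peaks had BATF. With centres within 100 bp these were 78.4% and 34.2%, with only the first 50% of each list paired anew 93.2% and 40.7%, with 82.9% of pairs within 50 bp, with equal numbers of first-listed peaks 69.4% for both, and with the antibodies exchanged 38.7% and 88.6%. The following values are for BATF with IRF4, BATF without IRF4 and IRF4 without BATF in that order. With centres within 100 bp, promoters held 4.74% and 9.12% of the BATF classes, JunB peaks 76.3%, 50.4% and 21.5%, *Junb*-deficient IRF4 peaks 51.4% of BATF without IRF4 and 56.6% of IRF4 without BATF, AP-1 38.9% and AICE 7.51% of BATF with IRF4. Among peaks in the first 50% of each list, with classes kept from the whole lists, promoters held 3.39%, 4.69% and 20.4%, JunB peaks 93.1%, 80.9% and 35.7%, *Junb*-deficient IRF4 peaks 88.6%, 30.3% and 73.4%, AP-1 39.6% and 30.3% of the BATF classes, AICE 8.40% of BATF with IRF4, and median TSS distances were 19.6 kb for BATF with IRF4 and 11.1 kb for IRF4 without BATF. With start sites of all annotated genes, promoters held 6.37%, 8.12% and 20.7% and median distances were 13.9, 11.2 and 9.26 kb. With 50 bp either side, AP-1 was found in 30.7%, 19.4% and 15.7%, and AICE in 6.02% of BATF with IRF4 and 1.78% of IRF4 without BATF. With 200 bp, AP-1 was found in 41.0%, 27.4% and 23.3%, and AICE in 7.65% and 2.62%. Counting genes with a TSS within 10 kb gave 4016 genes for BATF with IRF4 and 751 for BATF without IRF4. The comparisons within 4 equal parts of the IRF4 list and outside promoters were chosen after seeing the data. There, the ISRE difference between IRF4 peaks without and with BATF changed sign, to 4.19, 1.88, 0.626 and 0.462 points in parts 1 to 4 and 1.21 points outside promoters. The RUNX difference changed sign to 2.13, 1.35 and 2.29 points in parts 1, 2 and 4 and 0.483 outside promoters. The EICE difference was 0.385 and 1.53 points in parts 2 and 4, with intervals that included 0. The cause of these changes was not tested.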
